A study of Homo sapiens with 97 samples.

Results

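Human chromosome 22 was examined as a single stretch of the genome for which the deposited region lists give replication origins, replication timing and cut sites of the endonuclease AsiSI. Its members were all rows for that chromosome in 6 lists on the build hg19, 489 of 26599 regions. They comprised 205 of 3750 NS-seq peaks, 281 of 22720 timing intervals and 3 of 129 AsiSI sites overlapping MRE11. Nascent strand sequencing (NS-seq) isolates short, newly made DNA strands that still carry an RNA primer and so maps the places where replication starts. The series, of 97 samples in all, asked how replication is slowed near DNA double-strand breaks.

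The peak list was deposited with the input library of NS-seq in AsiSI-U2OS cells, an osteosarcoma line in which 4-hydroxytamoxifen (4OHT) brings AsiSI to its chromosomal sites. NS-seq was done in these cells, labelled wild-type, without treatment and after 4OHT (300 nM for 4 h). The list is named as merged without a statement of which libraries it merges, so it was put in no treatment group. The timing lists were deposited with 2 merged samples of untreated wild-type U2OS cells, in G1 and in S phase. The site list was deposited with MRE11 chromatin immunoprecipitation in 4OHT-treated HCT116 cells, a colorectal carcinoma line, here lacking the end-joining ligase LIG4 and with RAD21 (a cohesin subunit) on an auxin-inducible degron. Positions of peaks and sites therefore come from different cell lines. No list keeps samples apart, so no value below has a replicate error and no comparison was tested. Where an interval is given it is a 95% exact interval for counting error, computed as if peaks were independent of each other.

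Replication of a human chromosome begins at many origins, of which any cell uses only some, and neighbouring origins tend to fire together in domains that replicate at the same time in S phase. Early domains tend to be rich in genes and open chromatin, late domains poor in genes and compact. Chromosome 22 is a small, gene-rich acrocentric chromosome whose short arm consists of repeats and ribosomal DNA and is largely missing from hg19. The endonuclease subunit MRE11 gathers at broken DNA ends, so an AsiSI site that overlaps MRE11 is taken as one that was cut.

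The listed sequence of chromosome 22 ran without a gap from chr22:16015901 to 51304500, 35.3 Mb in all. NS-seq peaks lay at 5.81 per Mb (interval 5.04 to 6.66), the highest density of the 24 nuclear chromosomes. Chromosome 19 followed closely with 5.77 (5.17 to 6.41), and the intervals of these chromosomes overlapped. The listed sequence of chromosome 19 includes 1 stretch of 3.12 Mb that is listed as mid-early and holds no peak. Whether that stretch is assembled sequence in which peaks could be found was not examined. The first rank of chromosome 22 depends on counting that stretch. Chromosome 17, which resembles chromosome 22 in its early share, held 3.81 peaks per Mb (3.39 to 4.25), and the remaining 21 chromosomes together held 1.01. At the class densities found on the other 23 chromosomes, the timing classes of chromosome 22 would hold 53.4 peaks, and the 205 observed were 3.84 times that number. The same ratio was 4.10 on chromosome 19 and 2.61 on chromosome 17, and its median over the other 23 chromosomes was 0.805.

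Peaks were spread unevenly along the chromosome, with few windows left empty. Counted in windows of 1 Mb from the first base of the chromosome, 36 windows held listed sequence, with a median of 4.5 peaks and quartiles of 2.75 and 8.25. Only 2 windows (5.56%) were empty, against 22 of 82 (26.8%) on chromosome 17, 11 of 60 (18.3%) on chromosome 19 and 70.0% of 2855 windows on the other 21 chromosomes. Chromosomes 17 and 19 each list a mid-early stretch without a peak (2.95 and 3.12 Mb), which adds to their empty windows. At the high end, 7 windows held 10 peaks or more and together contained 85 peaks (41.5%). The fullest window of chromosome 22 held 14 peaks, fewer than the fullest of chromosome 17 (24) or chromosome 19 (20). Chromosome 22 thus had many moderately filled windows and no extreme one.

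**Figure D1:**
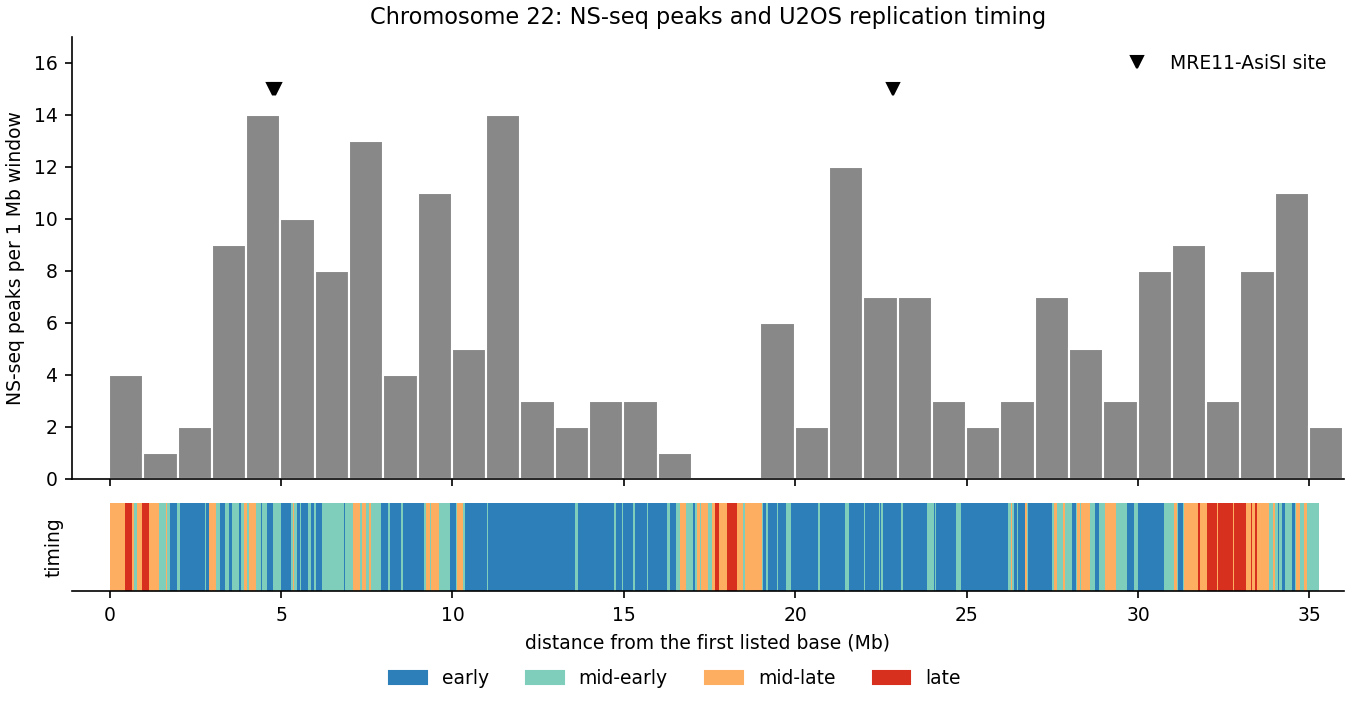
NS-seq peaks per 1 Mb window (bars) and the timing class of the sequence (colour strip) against distance from the first listed base, with triangles at the 3 MRE11-AsiSI sites; the first and the last window hold under 1 Mb of listed sequence. The fullest windows (14 peaks) lie in the left part, 2 empty windows lie mid-chromosome, and the late block near the right end carries peaks.

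The 6 fullest windows lay in 3 places. Windows chr22:20000001-21000000 and chr22:27000001-28000000 held 14 peaks each, and chr22:23000001-24000000 held 13. Window chr22:37000001-38000000 held 12, and chr22:25000001-26000000 and chr22:50000001-51000000 held 11 each. They differed widely in timing. The window starting at 27000001 was 97.6% early and that at 37000001 was 90.6% early, whereas early sequence made up 7.89% of the window at 23000001, 18.7% of that at 50000001, 23.7% of that at 20000001 and 24.7% of that at 25000001. The 2 empty windows, at chr22:33000001-34000000 and chr22:34000001-35000000, were mostly mid-late (55.8% and 64.0%).

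Across the 35 windows with more than 0.9 Mb of listed sequence, the number of peaks did not follow the early share (Pearson's r = -0.10, Spearman's rho = -0.10). It rose loosely with the mid-early share (r = 0.42, rho = 0.39). These coefficients are descriptions over windows of a single list that share its libraries. The 7 windows that were over 90% early show the lack of a relation: their median was 3 peaks, although they included windows of 12 and 14 peaks.

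Read from left to right, the window counts fell into stretches whose limits were chosen after the counts were seen. The first 2.98 Mb, next to the centromere, held 7 peaks (2.35 per Mb). The next 9 Mb, chr22:19000001-28000000, held 88 peaks or 42.9% of the total in 25.5% of the sequence, which is 9.78 per Mb. A sparse stretch followed at chr22:28000001-35000000, with 12 peaks in 7 Mb (1.71 per Mb) although 60.9% of it was early. Density was 5.42 per Mb at chr22:35000001-47000000 (65 peaks, 69.8% early) and 6.67 at chr22:47000001-50000000 (20 peaks, 39.5% late). The remaining 1.30 Mb held 13 peaks (9.97 per Mb). Early sequence held 7.65 peaks per Mb in the dense 9 Mb and 2.35 in the sparse 7 Mb, and mid-late sequence held 17.2 and 0. Because the limits followed the counts, such differences within a class are partly built in and are no separate result. The 22 peaks of mid-late sequence in the dense stretch were nearly as many as the 23 in all other mid-late sequence of the chromosome.

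Timing on chromosome 22 was predominantly early. Early intervals covered 18.3 Mb (51.9%), a share exceeded only by chromosome 17 (54.8%). Mid-early sequence made up 8.60 Mb (24.4%), the mid-late class 6.37 Mb (18.05%) and the late class 2.02 Mb (5.73%). Joining neighbouring intervals of the same class gave 185 domains: 53 early, 82 mid-early, 40 mid-late and 10 late. Their median lengths were 200.5 kb (early), 70.7 kb (mid-early), 117 kb (mid-late) and 199 kb (late). The classes met in order at 183 of 184 borders, of which 105 joined early and mid-early, 58 mid-early and mid-late, and 20 mid-late and late sequence. The exception was 1 border between early and mid-late sequence.

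Most domains were turning points of the timing profile and not steps on a slope. All 10 late domains lay between mid-late domains, and 52 of 53 early domains lay between mid-early domains. For these outermost classes this follows from borders in class order. Only mid-early and mid-late domains could have come out otherwise. Of the mid-early domains, 37 were dips between early domains, 13 were rises between mid-late domains and 31 joined different classes. Of the mid-late domains, 25 were dips between mid-early domains, 6 were rises between late domains and 8 joined different classes. The first and the last listed domain, mid-late and mid-early, have a neighbour on a single side and are not among these. The mid-late dips held 30 peaks in 3.59 Mb (8.35 per Mb), against 5 in 1.57 Mb (3.18 per Mb) for mid-late domains that joined different classes. Mid-early sequence had the opposite order, with 9.47 peaks per Mb where it joined different classes (32 peaks) and 6.84 in its dips (25 peaks). Rises held 7.98 per Mb in mid-late sequence (6 peaks) and 5.82 in mid-early sequence (7 peaks). No counting interval was computed for these densities, and the smaller counts give them little precision.

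The longest early domains were chr22:27054101-29600500 (2.55 Mb), chr22:40854801-42227400 (1.37 Mb) and chr22:35895501-36675300 (780 kb). They held 16, 3 and 4 peaks. The longest mid-early domains were chr22:22198801-22841400 (643 kb, 5 peaks), chr22:50940401-51304500 (364 kb, 2 peaks), which ends the chromosome, and chr22:25612401-25951500 (339 kb, 5 peaks). The longest mid-late domains were chr22:34549001-35055500 (506 kb, 0 peaks), chr22:16015901-16467800 (452 kb, 4 peaks), which opens the listed sequence, and chr22:47360001-47768200 (408 kb, 4 peaks). The longest late domains were chr22:48352701-48773700 (421 kb, 2 peaks), chr22:48821801-49157400 (336 kb, 3 peaks) and chr22:48031801-48331100 (299 kb, 0 peaks).

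The longest early domain was filled on its left side only. Its 16 peaks lay in the 1.16 Mb after its left border, and the 1.39 Mb from the last of them to the right border held 0. Its first interval, chr22:27054101-28079300, was the only interval of the chromosome over 1 Mb (1.03 Mb) and held 15 peaks (14.6 per Mb). Scores of the 16 peaks, the authors' value per peak, ran from 10.1 to 17.5 with a median of 10.8.

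Mid-early and mid-late sequence carried the highest peak densities on chromosome 22. There were 7.67 peaks per Mb in mid-early sequence (66 peaks, interval 5.94 to 9.76) and 7.07 in mid-late sequence (45 peaks, 5.15 to 9.45). Early sequence held 4.75 (87 peaks, 3.81 to 5.86) and late sequence 3.46 (7 peaks, 1.39 to 7.13). Each of these was high among chromosomes: the mid-early and mid-late densities exceeded those of all 23 others, and the early and late densities were each exceeded by 1 chromosome (19 for early, Y for late, where a single peak was counted). Chromosome 19 came next in mid-early density (6.79), counting its mid-early domain of 3.12 Mb without a peak. The first rank of chromosome 22 in the mid-early class depends on counting that domain.

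The order of the classes (mid-early, mid-late, early, late) was also found on 3 of the other 23 chromosomes, 6, 10 and 20. Mid-early density was 1.61 times early density (interval 1.15 to 2.25), against 1.42 on chromosome 17 (1.10 to 1.83), 0.968 on chromosome 19 (0.756 to 1.23) and 0.912 on the other 21 chromosomes (0.831 to 1.00). The compared mid-early values take in domains of 500 kb or more. Chromosomes 17 and 19 each had 1 without a peak (2.95 and 3.12 Mb), and the other 21 had 77 at 0.313 peaks per Mb. Chromosome 22 had 1, at 7.78 per Mb. On the other 21, mid-early domains under 200 kb and of 200 to 500 kb held 1.70 and 1.59, above the early density of 1.43 there. On chromosome 17 these sizes held 6.52 and 6.19, also above its early density of 3.79. On chromosome 19 they held 9.46 and 5.39, on either side of its early density of 7.02. Leaving out the large domains would raise the compared ratios, that of chromosome 17 above that of chromosome 22. The resulting ratios were not computed. Taken singly, 12 of the 23 others had a ratio above 1 and 5 a ratio above that of chromosome 22. Mid-late density was 1.49 times early density (1.01 to 2.15). That ratio was 0.910 on chromosome 17 (0.607 to 1.33), 0.501 on chromosome 19 (0.354 to 0.695) and 0.758 on the other 21 (0.689 to 0.833). Here 9 of the 23 others were above 1 and 4 above chromosome 22. Without the dense 9 Mb the mid-late ratio fell to 1.17 (0.686 to 1.94), which includes 1, while the mid-early ratio was 1.65 (1.03 to 2.58).

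Early over late density was 1.37 on chromosome 22, with an interval of 0.639 to 3.52 that includes 1. It was 6.25 on chromosome 17 (2.62 to 19.5), 7.15 on chromosome 19 (2.75 to 26.53) and 4.60 on the remaining 21 chromosomes (3.98 to 5.34). Of the 22 other chromosomes with a peak in late sequence, 18 had a higher ratio. The chromosome 22 value rests on 7 late peaks in 2.02 Mb, and its interval overlaps those of chromosomes 17 and 19.

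**Figure D2:**
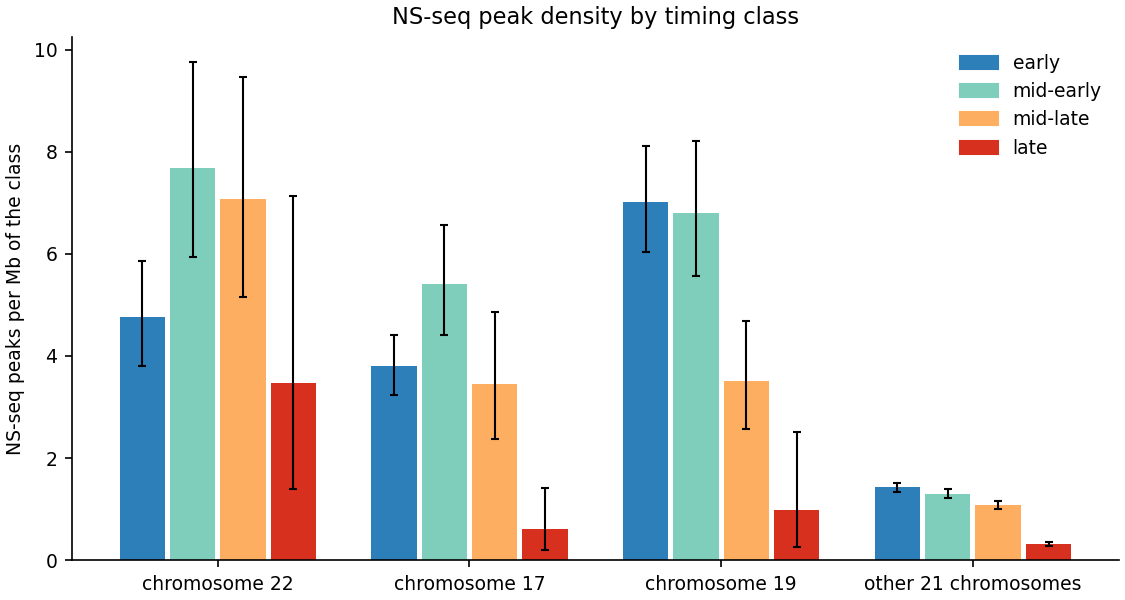
NS-seq peaks per Mb of each timing class (bars, axis from 0) on chromosomes 22, 17 and 19 and on the other 21 chromosomes together, with 95% exact counting intervals. On chromosome 22 the mid-early (7.67) and mid-late (7.07) bars stand above the early bar (4.75), and the late bar (3.46) has the widest interval.

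All 7 late peaks came from a single part of the chromosome. The 4 late domains between chr22:16467801 and 34323900, 0.837 Mb in all, held 0 peaks. The 6 late domains between chr22:47768201 and 49482000, 1.19 Mb in all, held the 7 peaks (5.90 per Mb). This division followed where the peaks lay, so the difference in density is built in. No interval was computed for it. These peaks were chr22:47774415-47775414 (score 12.3), chr22:48491392-48492391 (17.02), chr22:48734568-48735567 (10.9), chr22:48997536-48998535 (10.4), chr22:49074664-49075663 (16.8), chr22:49152606-49153605 (14.5) and chr22:49432719-49433718 (12.4). Their nearest neighbours were 69.1 to 243 kb away, so none belonged to a cluster. The first, the sixth and the last of them lay 6.71, 4.30 and 3.82 kb from a border with mid-late sequence, and the other 4 lay 38.6 to 159 kb inside.

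Peaks were found in 83 of the 185 domains. They were present in 26 of 53 early, 33 of 82 mid-early, 20 of 40 mid-late and 4 of 10 late domains. Early domains with a peak had a median length of 393 kb and those without of 132 kb, and mid-early domains 136 and 56.0 kb. At equal density a longer domain is more likely to hold a peak, so a difference in this direction is built in. Mid-late domains with and without a peak had similar median lengths, 117 and 126 kb. The fullest domain for its size among those with 5 peaks or more was mid-late, chr22:20089101-20274800, with 7 peaks in 186 kb (37.7 per Mb). The early domain chr22:37571201-38027900 held 9 peaks in 457 kb (19.7 per Mb), and the mid-early domain chr22:23637101-23921100 held 6 in 284 kb (21.1 per Mb).

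**Figure D3:**
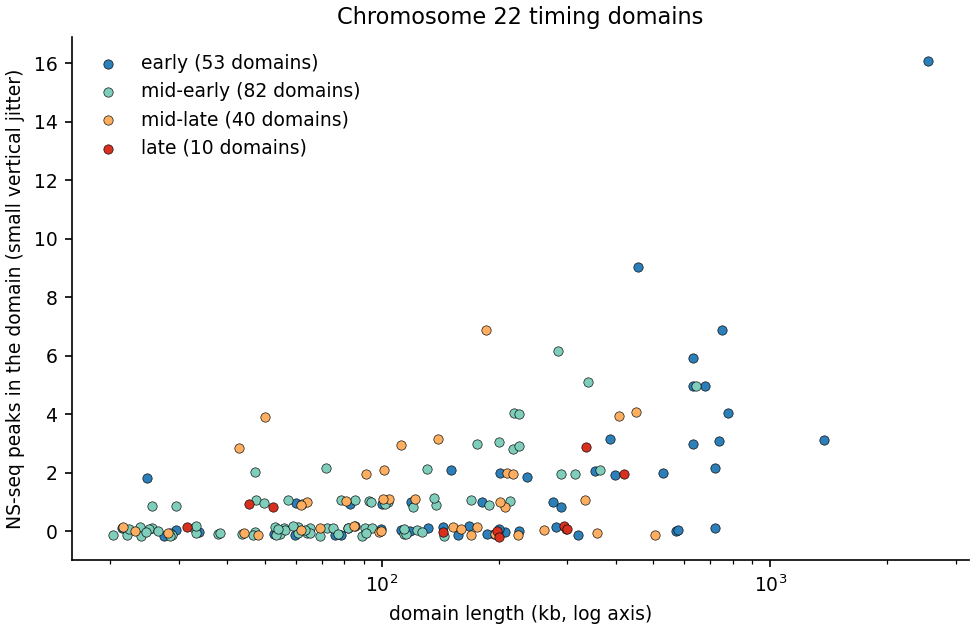
Number of NS-seq peaks in each of the 185 timing domains of chromosome 22 against domain length (log axis), coloured by class, with a small vertical jitter. The 2.55 Mb early domain with 16 peaks stands apart, and 102 domains lie at 0.

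Density also changed with domain size in a way that differed by class. Mid-late domains under 200 kb held 11.2 peaks per Mb (30 peaks, interval 7.53 to 15.9) and those of 200 to 500 kb held 4.73 (15 peaks, 2.65 to 7.80). Mid-early domains had the reverse order, with 5.13 per Mb under 200 kb (26 peaks, 3.35 to 7.52) and 12.1 at 200 to 500 kb (35 peaks, 8.43 to 16.8). Of the 30 peaks in short mid-late domains, chr22:20089101-20274800 held 7, chr22:23587001-23637100 held 4 and chr22:21355401-21398300 held 3. These domains lie in the dense stretch chr22:19000001-28000000, whose limits were chosen after the counts were seen, and their part was not tested. On the other 23 chromosomes short domains were the denser ones in both classes, at 1.72 against 0.940 for mid-late and 2.08 against 1.79 for mid-early sequence. Early density on chromosome 22 was 3.49 under 200 kb, 5.74 at 200 to 500 kb and 4.71 at 500 kb or more, with overlapping intervals.

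Mid-early peaks lay more in the inner parts of their domains. Of 66 mid-early peaks, 35 (53.0%) lay within 50 kb of a class border, while 65.3% of mid-early sequence did, so density was 6.23 per Mb near borders and 10.4 farther inside (ratio 0.601, interval 0.360 to 1.01). On the other 23 chromosomes 66.0% of mid-early peaks and 49.9% of mid-early sequence lay that near to a border. They also include 79 mid-early domains of 500 kb or more with 0.303 peaks per Mb, against 1 such domain on chromosome 22, and the part of this in the difference was not tested. Early peaks of chromosome 22 were slightly denser near borders, at 5.73 against 4.42 per Mb (ratio 1.30, interval 0.791 to 2.07), and mid-late peaks likewise, at 8.43 against 5.58 (1.51, 0.799 to 2.94). All 3 intervals include 1.

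The median distance between neighbouring midpoints was 74.3 kb, with quartiles of 25.7 and 156 kb and a mean of 171 kb over 204 distances. The median was 59.8 kb on chromosome 17, 54.6 kb on chromosome 19 and 103 kb within the other 21 chromosomes. Chromosomes 22 and 19 had nearly equal mean distances (171 and 173 kb), while the median was longer on chromosome 22. The median was 0.435 times the mean on chromosome 22, the highest such ratio of the 24 chromosomes, against 0.316 on chromosome 19 and 0.227 on chromosome 17. The mean takes in the longest distances, which reached 2860 kb on chromosome 22, 8986 kb on chromosome 19 and 6332 kb on chromosome 17.

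Distances of at most 10 kb made up 13.7% of the total on chromosome 22, 17.9% on chromosome 17 and 17.6% on chromosome 19. The median over the other 23 chromosomes was 10.6%, and 15 of them were lower than chromosome 22. Chaining peaks at most 10 kb apart left 152 peaks (74.1%) on their own, 44 in 22 pairs and 9 (4.39%) in 3 clusters of 3. On chromosome 17 clusters of 3 or more held 9.06% of peaks and on chromosome 19 9.97%, with runs of up to 4 and 7 peaks. The share on chromosome 22 was in the middle of the 24, with 12 chromosomes higher and 11 lower. No run on chromosome 22 was longer than 3.

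**Figure D4:**
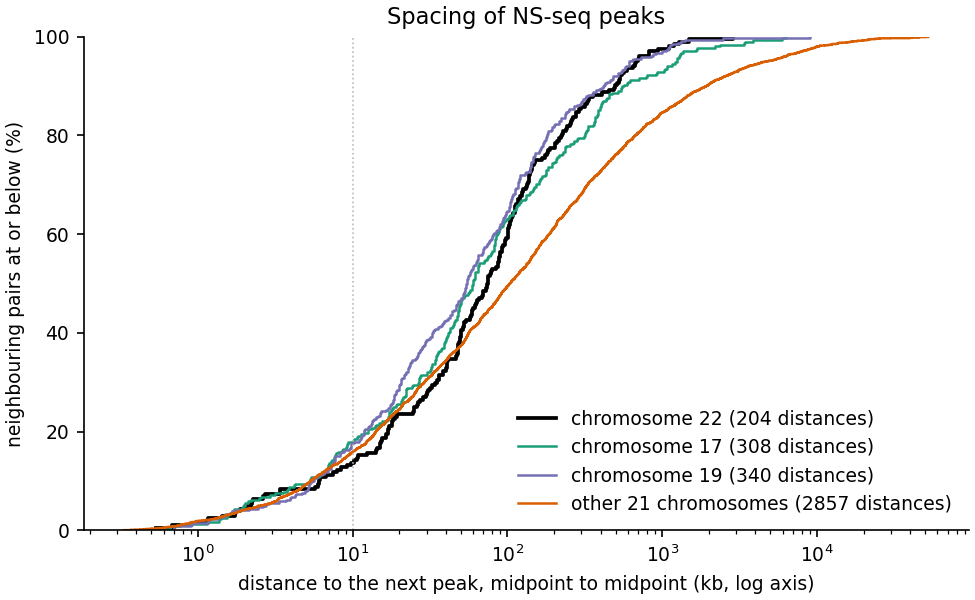
Cumulative share of neighbouring NS-seq peaks at or below a given distance (log axis) for chromosome 22 (204 distances), chromosome 17, chromosome 19 and the other 21 chromosomes; the dotted line marks 10 kb. The chromosome 22 curve starts lower than the others near 10 kb (13.7%) and ends earliest, at 2.86 Mb.

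The 3 clusters spanned 10.0 to 14.9 kb and differed in score. The cluster chr22:43891545-43905686 (14.1 kb, mid-early) had scores from 11.3 to 15.4, the cluster chr22:23621064-23631088 (10.0 kb, mid-late) from 11.2 to 12.7, and the cluster chr22:21369441-21384366 (14.9 kb, mid-late) from 10.7 to 11.1. The pairs with the largest summed scores were chr22:49286043-49292724 (scores 16.9 and 13.4, mid-late), chr22:16334489-16336926 (16.9 and 10.2, mid-late) and chr22:35738841-35748978 (15.1 and 11.9, early). Of the 22 pairs, 11 lay in early, 8 in mid-early and 2 in mid-late sequence, and 1 crossed from early to mid-early. In 3 pairs the listed peaks overlapped each other, at midpoint distances of 0.538, 0.683 and 0.899 kb.

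The longest stretches between neighbouring peaks were of 2 kinds. The longest, 2.86 Mb between the peaks at chr22:32601247-32602246 and chr22:35461442-35462441, was 49.98% mid-late and 15.3% late, and the fourth, 1.19 Mb between chr22:16394279-16395278 and chr22:17584401-17585400, was 49.2% mid-late and 33.5% late. The other 3 were mostly early. They spanned 1.49 Mb between chr22:28212273-28213272 and chr22:29700814-29701813 (94.5% early), 1.29 Mb between chr22:40094224-40095223 and chr22:41385892-41386891 (85.8% early) and 1.11 Mb between chr22:31486346-31487345 and chr22:32601247-32602246 (86.6% early). These were the only distances over 1 Mb on chromosome 22. Chromosome 17 had 22 such distances and chromosome 19 had 10, the longest being 6332 and 8986 kb. Each of these chromosomes lists 1 mid-early domain without a peak (2.95 and 3.12 Mb), whose part in these distances was not examined. The list holds no peak scoring below 10.0, so origins with weaker signal may lie in these stretches.

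Scores on chromosome 22 were slightly low for the list. The median was 11.5 (range 10.0 to 21.5), against 11.8 over the other nuclear chromosomes, and 20 of 23 chromosomes had a higher median. Scores of 15 or more were reached by 31 peaks (15.1%), close to the 15.8% elsewhere. Within the chromosome, the median score was 11.2 for early, 11.6 for mid-early, 11.5 for mid-late and 12.4 for late peaks, with overlapping ranges. Peaks on their own within 10 kb (median 11.5) and peaks with such a neighbour (11.3) also overlapped.

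The 10 highest-scoring peaks were single sites, and no late peak was among them. The peak chr22:23844076-23845075 scored 21.5 and ranked 23rd among all nuclear peaks. It was followed by chr22:37622781-37623780 (20.5), chr22:26555573-26556572 (19.7), chr22:20850136-20851135 (19.3) and chr22:49344464-49345463 (19.2). The next were chr22:51000224-51001223 (18.6), chr22:44971228-44972227 (18.2), chr22:27131878-27132877 (17.5), chr22:37780143-37781142 (17.2) and chr22:25883109-25884108 (17.2). Of these 10 peaks, 5 were mid-early, 4 early and 1 mid-late. The late peak chr22:48491392-48492391 came twelfth with a score of 17.02. All 10 stood alone at 10 kb, as did 74.1% of all peaks of the chromosome, with a nearest neighbour 15.05 to 137 kb away.

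The right end of chromosome 22 was denser than the interior, but by little. The last 2 Mb, chr22:49304501-51304500, held 16 peaks (8 per Mb, interval 4.57 to 13.0), and the rest of the listed sequence held 5.68 per Mb. The ratio of 1.41 had an interval of 0.789 to 2.35, which includes 1, and 20 of the 23 other chromosomes had a higher ratio, with a median of 7.78. The end density of 8 per Mb equalled the median of the other 23 chromosomes, whereas the interior density was exceeded on chromosome 19 (5.92) alone. The last 1 Mb held 11 peaks and was 1.94 times as dense as the rest (0.955 to 3.56). The last 5 Mb, which take in the late block, held 40 peaks and were 1.47 times as dense (1.01 to 2.09), an interval that leaves out 1.

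The 16 end peaks comprised 8 in mid-early, 7 in mid-late and 1 in late sequence, and 0 in the 9.36% of the end that was early. Their scores had a median of 11.5 and a maximum of 19.2. The last peak, chr22:51048342-51049341, lay 255 kb before the last listed base. At the other limit of the listed sequence, next to the centromere and no chromosome end, the first 2 Mb held 5 peaks (2.50 per Mb, interval 0.812 to 5.83). The first peak, chr22:16216855-16217854, lay 201 kb after the first listed base.

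The 3 AsiSI sites overlapping MRE11 on chromosome 22 fell in 2 places. The sites chr22:20785433-20785440 and chr22:20850307-20850314 were 64.9 kb apart in the dense left stretch, and the site chr22:38864101-38864108 lay 18.01 Mb farther on. The first and the last were in early sequence and the second in mid-early sequence. Chromosome 22 had 8.50 sites per 100 Mb of listed sequence, exceeded by 3 of the 23 other chromosomes, and a count of 3 gives this value little precision.

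A peak lay within 10 kb of 2 of the 3 sites (66.7%, exact Clopper-Pearson interval 9.43 to 99.2%). On the other chromosomes this held for 7 of 126 sites (5.56%, 2.26 to 11.1%), including 0 of 12 on chromosome 17 and 2 of 8 on chromosome 19. At wider gaps the contrast shrank or turned. On chromosome 22 it stayed at 2 of 3 sites within 50 and 100 kb, on chromosome 19 it was 6 of 8 (75%) and 7 of 8 (87.5%), and on all other chromosomes together it was 22.2% and 34.1%. The 2 sites with a near peak on chromosome 22 lie side by side and share their surroundings, so they are not independent cases.

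The second site, chr22:20850307-20850314, lay inside a peak, 0.325 kb to the left of its midpoint. That peak, chr22:20850136-20851135, had the fourth highest score of the chromosome (19.3). Only 2 of the 126 sites on other chromosomes also lay inside a peak. The site was 59.8 kb from the nearest class border, in a mid-early domain of 219 kb (chr22:20790501-21009400) with 4 peaks. The next peak to its left was 72.0 kb away.

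The first site, chr22:20785433-20785440, lay 6648 bp from the edge of the peak chr22:20777785-20778784, whose score of 10.0 ranked 200th of 205. It was in an early domain of 181 kb (chr22:20609101-20790500) and only 5.06 kb from its border with the mid-early domain of the second site. That early domain held 1 peak. On its other side the nearest peak was the one that contains the second site, 65.2 kb away. The paired sites thus stood on either side of a timing border, next to peaks near opposite ends of the score order.

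The third site, chr22:38864101-38864108, had no peak nearby. It lay 241 kb from the nearest border, in the middle of an early domain of 529 kb (chr22:38576701-39105300). The nearest peak to its left was chr22:38616482-38617481 (score 12.0), at 247 kb, and the nearest to its right was chr22:39441157-39442156 (score 13.4), at 578 kb. The domain held 2 peaks.

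**Figure D5:**
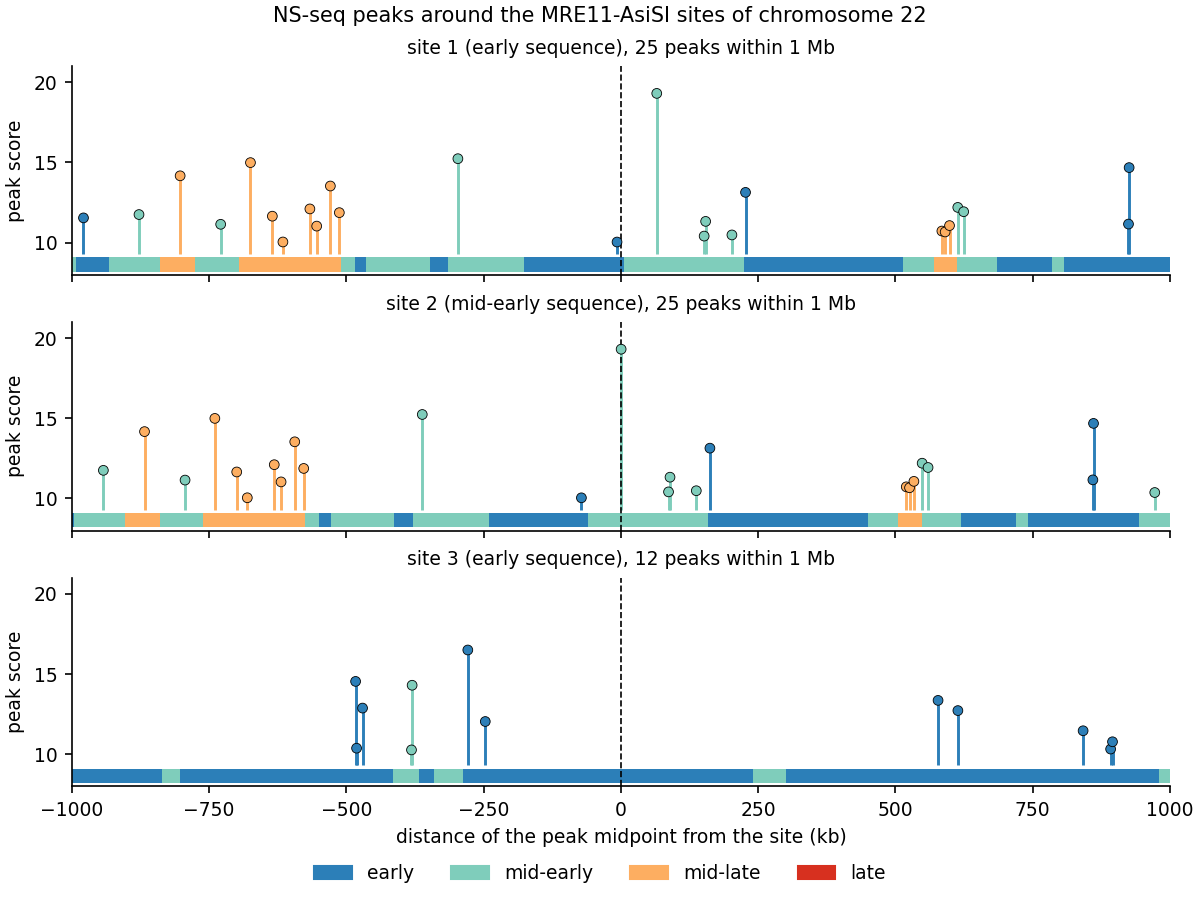
NS-seq peaks within 1 Mb of each MRE11-AsiSI site of chromosome 22: score of each peak (authors' value, axis from 8) against distance of its midpoint from the site, coloured by timing class, with the class of the sequence in the strip below; stems only mark positions. Sites 1 and 2 share 24 of their 25 peaks, and site 3 has 12 peaks, none within 247 kb.

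Within 1 Mb on either side, the first and second sites had 25 peaks each, of which 24 were shared (12.5 per Mb), and the third site had 12 (6 per Mb). The median over the 126 sites elsewhere was 2 peaks, but it was 22.5 over the 8 sites of chromosome 19, close to the paired sites, and 7.5 over the 12 sites of chromosome 17, where the highest count was 44. Of the peaks around the paired sites, the 7 of the mid-late domain chr22:20089101-20274800 had midpoints at -675 to -513 kb from the first site, a minus sign meaning to its left, with scores from 10.0 to 14.99. The mid-late cluster chr22:21369441-21384366 lay 585 to 598 kb to its right.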

How the data were processed

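NS-seq peaks, AsiSI sites and timing intervals were used as the 6 region lists the authors deposited, on hg19 per the submitters' processing notes, which also name MACS2 without version or role. Per the labels' protocols, NS-seq DNA was size-fractionated and digested with exonuclease. No source used here gives the aligner, the filters, the merging of libraries or the division of timing classes, and read depth is unknown. The score is the authors' deposited value per peak, with no stated scale (10.0 to 26.5), and all other values are positions. Every peak is 1000 bp wide.

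Each peak was placed by its midpoint, and neighbouring intervals of a class were joined to domains. Densities carry exact Poisson intervals, their ratios exact conditional intervals and site shares exact Clopper-Pearson intervals, all at 95% (SciPy 1.17.1, Python 3.11.15). These cover counting error only. No chance test was made. Interval functions were tested on simulated data.

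Regions were named by a rule: the 10 highest-scoring peaks, the first and last peak, the 6 fullest and the empty windows, 6 clusters or pairs, the 5 longest distances, the 3 longest domains per class, intervals over 1 Mb and all sites. Late peaks, the fullest domains, the stretches and the border distance were chosen after their values were seen. The chromosome and all lists were chosen with earlier results of these data known. Alternatives changed the score minimum, class assignment, window, gap, end and interval rules. No hg19 sequence or annotation was used, so base composition, mappability, copy number, genes and motifs were not analysed here.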

Additional observations from a re-analysis of the deposited data

How the results depend on the processing

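Across 14 results, 65 alternatives were computed, 42 planned and 23 added after seeing the data. In 49 the value kept its direction and stayed within the counting interval of the reported value (for counts within 1.5 times, for the early share, which has no such interval, within 1 percentage point), 14 moved beyond these limits and 2 turned in direction. Keeping only the 91 peaks at or above the median nuclear score of 11.8 lowered density to 2.58 per Mb, windows with 10 peaks or more from 7 to 0 (the fullest then held 8), clustered peaks to 0% and sites with a peak within 10 kb to 1, raised the median distance to 159 kb, and turned early over late density to 0.796. Early with mid-early over mid-late with late density was 0.918, also turned. Late values rest on 7 peaks, and without chr22:47000001-50000000 no late peak is left, so the ratio has no value. Counting 1 peak per 10 kb run gave 5.02 per Mb. The share of peaks in clusters was set by the rule: 0% at 5 kb, 13.2% at 20 kb, 30.2% at 50 kb and 25.9% with pairs included. Windows of 500 kb gave 21 at the same density. A gap of 1 kb left 1 site near a peak. The mean score was 12.4, and without the interval over 1 Mb the early share was 50.4%. Mid-early over early density stayed between 1.52 and 1.84 in all its alternatives. The interval of mid-late over early density came to include 1 with the score minimum (0.822 to 2.71), with 1 peak per run (0.975 to 2.20), and without the stretch at 19000001 to 28000000, at 47000001 to 50000000 (0.974 to 2.22) or from 50000001 on (0.882 to 1.95). No paired analysis was possible because the lists are merged and keep no replicates apart.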
